A study of Mus musculus with 9 samples.

Results

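Genes controlled by the transcription factor p53 and genes of the mitochondrial cell death pathway were followed across 3 stages of mouse neural crest derivatives. The list names 33 genes in 3 groups: p53 with its Mdm regulators and targets (19 genes), the Bcl2 family (7 genes), and caspases with the proteins that activate or restrain them (7 genes). Members were all probe sets annotated to exactly 1 of these symbols, which gave 82 of the 34945 probe sets with 1 symbol, for 31 of the 33 genes. Trp53, which encodes p53 itself, and Bax were not analysed here. Of the 31 genes, 29 were bright enough to be tested (15 of the p53 group and all 7 of each other group), among 13748 genes tested in all. The death receptor gene Fas and the BH3-only gene Pmaip1 were not.

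p53 is held at a low level by the ubiquitin ligase Mdm2 and its partner Mdm4, and is released when DNA is damaged or cells are stressed. It then raises genes that halt the cell cycle, repair or buffer the damage, or start cell death. Death runs through the mitochondrion: BH3-only proteins such as Bbc3 and Bcl2l11 bind the survival proteins Bcl2, Bcl2l1 and Mcl1 and set free the pore formers Bax and Bak1, cytochrome c (Cycs) leaves the mitochondrion and joins Apaf1, and this complex activates caspase 9. The neural crest is known for its sensitivity to p53: excess p53 activity in embryos removes crest cells and causes craniofacial defects. Sensory ganglia lose many neurons by programmed death during normal development.

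The study set out to examine DNA repair genes in neural crest cells (NCCs) through mouse development. Cells were cut from tissue by laser capture at 3 stages, with 3 arrays per stage: at E8.5 as the neural tube closes, at E13.5 in the dorsal root ganglion, and in the adrenal medulla of adults 3 months old (P90). Total RNA of each capture was labelled with biotin and hybridised to an Affymetrix array, which gives 1 signal per probe set in arbitrary linear units. The labels call the samples of a stage biological replicates. Strain, genotype and the number of animals behind a capture are not given in the sources used here, so the p-values measure the spread between these samples. Each stage was sampled in 1 tissue, so age and tissue cannot be told apart. A lower signal can come from fewer cells of a type or from less RNA per cell, which cannot be told apart in these bulk samples.

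Array medians ran from 38.3 to 48.2 signal units. The crest factors Sox10 and Tfap2a averaged 282 ± 43.7 (E8.5), 472 ± 75 (E13.5) and 109 ± 33.1 (P90), and 655 ± 287 (E8.5), 433 ± 137 (E13.5) and 78 ± 29.2 (P90). Foxd3 was at 276 ± 117 (mean ± SD, n = 3 arrays, as for all means here) at E8.5 against 29.7 ± 24.9 at P90. In the ganglion, the sensory neuron factor Isl1 was at 4513 ± 1179 against 58.9 ± 78.4 at E8.5, and the receptor gene Ntrk2 at 873 ± 583 against 158 ± 32.1. Pou4f1, another factor of these neurons, had empty cells on all E13.5 arrays. At P90 the chromaffin enzymes of adrenaline synthesis were bright, but P90 replicate 1 stood apart: Dbh was at 305, 2172 and 2072 on replicates 1 to 3, Pnmt at 633, 3749 and 3289, and Th was empty on replicate 1. On the same array the summed signal of 2 adrenal cortex genes was 8246 (4813 and 4168 on the others, 99.6 to 198 over the E8.5 arrays and 201 to 1144 over the E13.5 arrays), that of 6 endothelial genes 4034 (859 and 782) and that of 4 mesenchymal genes 4395 (1584 and 851). Cyp11b1, Star and Hsd3b1, which define cortex, were empty on all P90 arrays. E13.5 replicate 2 stood apart in RNA quality. Its 3' and 5' probe sets for Actb differed by 7.0 log2 units, against 0.851 and 2.87 on the other E13.5 arrays. The difference varied within the other stages too. It was 4.82, 2.05 and 2.39 on E8.5 replicates 1 to 3, and 1.36, 4.09 and 3.51 on P90 replicates 1 to 3.

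The promoters of the members that changed are shown first, because p53 acts on its direct targets through a response element, which often lies in or near the promoter. Sequences are from RefSeq (GRCm38.p6), each running from 250 bases before to 50 bases after a transcription start, 5′ to 3′ along the gene's strand. They were searched for the p53 response element, that is 2 copies of its 10-base decamer with at most 13 bases between them and at most 3 mismatches outside the invariant C and G of each copy; the element is a palindrome, so 1 search covers both strands. Capitals mark a match. Ccng1 and Sesn1 stand for the members that were high at P90, Aen for one that was low, and Plk2 for one that was high at E13.5 and holds no match.
Ccng1, chr11:40755237-40755536, strand minus: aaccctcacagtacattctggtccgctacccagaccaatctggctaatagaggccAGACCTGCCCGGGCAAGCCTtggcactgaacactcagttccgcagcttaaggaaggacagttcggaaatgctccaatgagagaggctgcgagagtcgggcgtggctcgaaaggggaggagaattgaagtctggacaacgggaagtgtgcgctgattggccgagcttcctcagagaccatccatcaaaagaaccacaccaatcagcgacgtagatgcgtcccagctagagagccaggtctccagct
Sesn1, chr10:41887189-41887488, strand +: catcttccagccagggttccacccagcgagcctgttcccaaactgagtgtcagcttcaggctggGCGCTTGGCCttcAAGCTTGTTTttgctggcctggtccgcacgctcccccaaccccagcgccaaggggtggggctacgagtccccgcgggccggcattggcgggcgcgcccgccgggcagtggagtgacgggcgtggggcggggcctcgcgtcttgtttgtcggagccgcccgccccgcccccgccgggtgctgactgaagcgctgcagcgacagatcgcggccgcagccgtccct
Aen, chr7:78895808-78896107, strand +: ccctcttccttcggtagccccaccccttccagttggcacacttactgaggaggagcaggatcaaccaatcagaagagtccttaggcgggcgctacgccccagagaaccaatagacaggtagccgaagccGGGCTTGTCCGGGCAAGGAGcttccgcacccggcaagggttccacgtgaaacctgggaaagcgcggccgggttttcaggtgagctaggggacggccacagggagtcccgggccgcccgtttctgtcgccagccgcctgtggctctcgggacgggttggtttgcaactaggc
Plk2, chr13:110394794-110395093, strand +: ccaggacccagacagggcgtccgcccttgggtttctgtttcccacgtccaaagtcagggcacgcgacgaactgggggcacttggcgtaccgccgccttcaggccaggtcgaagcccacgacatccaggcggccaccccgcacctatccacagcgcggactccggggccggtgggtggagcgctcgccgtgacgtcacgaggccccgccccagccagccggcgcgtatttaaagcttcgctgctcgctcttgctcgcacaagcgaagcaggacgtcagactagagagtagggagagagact

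The Ccng1 match had 1 mismatch and lay from base -195 to base -176 before the start. The Sesn1 match, at the second of its listed starts, had 2 mismatches with 3 bases between the copies, and the Aen match had 3 mismatches. Matches of this kind were common: 15.6% of all 32851 windows held one with at most 3 mismatches, 4.09% held one with at most 2 mismatches and 0.627% one with at most 1. Of the 29 tested members, 25 had a promoter entry (Trp53inp1, Perp, Zmat3 and Tnfrsf10b had none), and 7 of them (28%) held a match with at most 3 mismatches in any window, against 17.4% of 27025 genes. In the p53 group 6 of 11 genes with an entry held such a match. With at most 2 mismatches it was 3 of 11, beside 4.71% of the 27025 genes. The other members with a match were Gadd45a (2 mismatches) and Mdm4, Bbc3 and Bcl2l1 (3 mismatches each). Gadd45a and Bbc3, which were not called, are shown by their matches alone.
Gadd45a: GGACCTGGTTggctgaGGGCTAGCCC
Bbc3: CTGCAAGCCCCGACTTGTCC

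A match describes the letters of the window only. Among the called members with a match, Ccng1 and Sesn1 rose between E8.5 and P90 and Aen fell. Plk2 and Bak1 were called too and had no match in their windows.

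Few members passed the test for a change between stages. Between E8.5 and E13.5, Sesn1 rose 3.19-fold and Plk2 rose 5.71-fold, and no member was called lower by its brightest probe set. There, limma's unadjusted p was under 0.05 for 4 higher and 4 lower members. The share of all genes under that unadjusted threshold is not given here, so such counts have no background to be read against. Between E8.5 and P90, Trp53inp1 rose 6.4-fold, Sesn1 3.89-fold and Ccng1 3.71-fold, while Aen fell 3.21-fold and the pore former Bak1 fell 2.19-fold. Among the tested members, no survival gene of the Bcl2 family, no BH3-only gene and no caspase passed the test by its brightest probe set in any comparison.

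A gene was called where limma's adjusted p over all 13748 genes was under 0.05, on log2(signal + 16) in 1 fit of all 9 arrays; all changes and folds are on that scale, which understates changes of dim genes. At E13.5 against E8.5, 2 of 29 members were called (6.9%), against 16.5% of all genes tested; 9.27% of all genes were called higher and 7.22% lower. At P90 against E13.5, 0 of 29 members were called, against 9.48% of all genes (3.54% higher and 5.94% lower). There, limma's unadjusted p was under 0.05 for 6 members, 4 higher and 2 lower. At P90 against E8.5, 5 of 29 were called (17.2%), against 23.3% of all genes (10.9% higher and 12.5% lower). For these stages limma's unadjusted p was under 0.05 for 3 higher and 4 lower members. A limma F-test over the 3 stages called 4 members (13.8%), Ccng1, Sesn1, Trp53inp1 and Bak1, against 26.3% of all genes.

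The members' median log2 change was -0.04 at E13.5 against E8.5, 0.02 at P90 against E13.5 and -0.11 at P90 against E8.5, beside 0.02, -0.05 and 0.00 over all genes tested. Stages did not overlap, so that every array of one lay above every array of the other, for 9 (31%), 6 (20.7%) and 12 (41.4%) members in the same order, against 35.8%, 23.5% and 43.9% of all genes. Of the 15 tested genes of the p53 group, 2 (13.3%), 0 and 4 (26.7%) were called in the same order, beside 16.5%, 9.48% and 23.3% of all genes. In that group 8 (53.3%), 4 (26.7%) and 8 (53.3%) did not overlap between stages, beside the 35.8%, 23.5% and 43.9% of all genes. The counts were 1 (14.3%), 1 (14.3%) and 2 (28.6%) for the 7 Bcl2 family genes. For the 7 caspase pathway genes they were 0, 1 (14.3%) and 2 (28.6%).

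**Figure D1:**
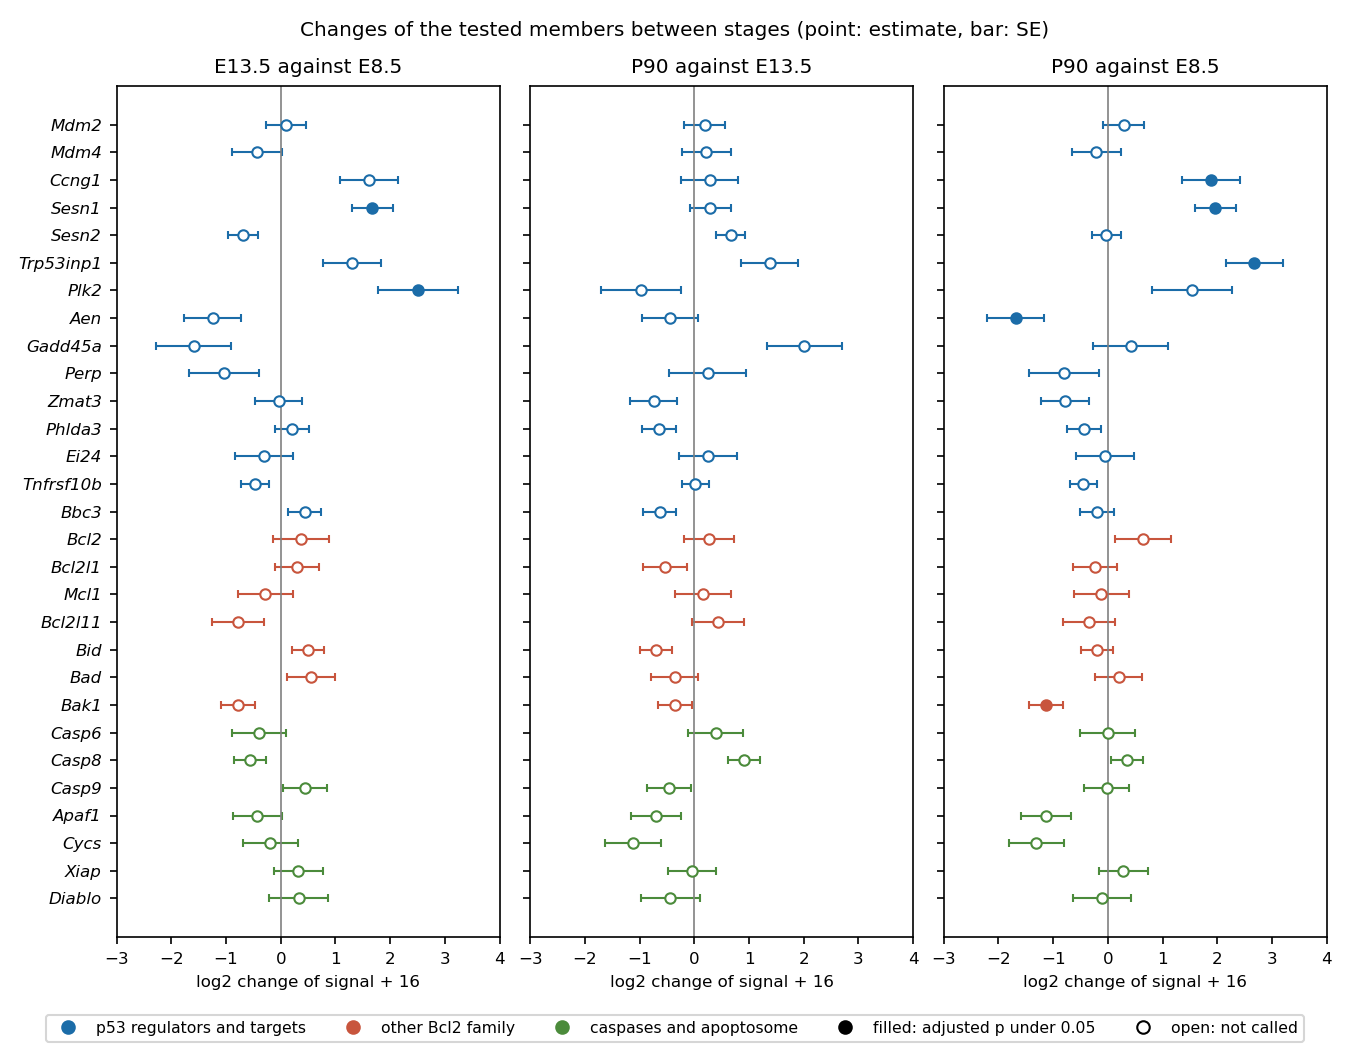
Log2 change (of signal + 16, horizontal axis) of each of the 29 tested members, 1 panel per comparison, with points for the estimates and bars for the standard error. Called members stand out on the right for Sesn1 and Plk2 at E13.5 against E8.5, and at P90 against E8.5 on the right for Trp53inp1, Sesn1 and Ccng1 and on the left for Aen and Bak1, while no member was called at P90 against E13.5.

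Neither tested regulator of p53 was called in any comparison. Mdm2, the ligase that marks p53 for destruction and is itself a p53 target, gave signals of 53.3, 71.6 and 90.6 on the E8.5 arrays, 46, 156 and 58.8 on those of E13.5 and 90.8, 91.5 and 86.7 on those of P90. The stages overlapped, and the highest array of all was E13.5 replicate 2. On the dimmer probe set 1423605_a_at the same array was the lowest, with 31.7, 116 and 82.9 on the E8.5 arrays, 81.6, 1.93 and 20.6 on those of E13.5 and 182, 34.4 and 45.1 on those of P90, and log2 changes of -1.09 ± 0.66 at E13.5 against E8.5 (limma adjusted p = 0.329) and 1.08 ± 0.66 at P90 against E13.5 (adjusted p = 0.425). By the brightest probe set, the log2 change at P90 against E8.5 was 0.29 ± 0.37 (SE; limma adjusted p = 0.625), with a 95% interval of -0.52 to 1.10, so a change of 1 log2 unit upward is inside the interval. Mdm4, which blocks the activating region of p53, averaged 321 ± 8.84 (E8.5), 266 ± 149.9 (E13.5) and 280.3 ± 71 (P90), with log2 changes of -0.43 ± 0.45 for E13.5 against E8.5, 0.22 ± 0.45 for P90 against E13.5 and -0.21 ± 0.45 for P90 against E8.5.

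Sesn1 encodes a sestrin, a stress protein that restrains the growth kinase mTORC1. The signals were 207, 233 and 226 on the E8.5 arrays, 733, 534 and 1039.7 on the E13.5 arrays and 904, 1183 and 703 on the P90 arrays (probe set 1438931_s_at). All 6 later arrays lay above all 3 E8.5 arrays, and the E13.5 and P90 arrays overlapped. The log2 change was 1.67 ± 0.38 at E13.5 against E8.5 (limma adjusted p = 0.0101) and 1.96 ± 0.38 at P90 against E8.5 (adjusted p = 0.00306), and both calls held when any of the 9 arrays was left out. The suffix _s_at marks a probe set that may bind several transcripts. Of the other 2 Sesn1 probe sets past the filter, 1433711_s_at gave 1.11 ± 0.49 and 1.71 ± 0.49 (adjusted p = 0.168 and 0.0296). The third, 1454699_at, gave 0.77 ± 0.71 and 1.54 ± 0.71 (adjusted p = 0.551 and 0.157), so with it as the gene's probe set neither change was called. Sesn2, its paralogue, was lowest at E13.5, at 81.9 ± 19.9 (E8.5), 44.4 ± 9.68 (E13.5) and 80 ± 17.7 (P90). The E13.5 arrays lay below all others, but neither difference was called (adjusted p = 0.11 against E8.5 and 0.174 for P90 against E13.5), while its dimmer probe set 1451599_at fell by 0.74 ± 0.21 at E13.5 against E8.5 (adjusted p = 0.0347).

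Trp53inp1 encodes a stress-induced partner of p53 that also takes part in autophagy. The signals were 153, 152 and 201 on the E8.5 arrays, 545, 259.7 and 579 on the E13.5 arrays and 2562, 1000.5 and 599 on the P90 arrays. The 3 stages were fully separated, each array of a later stage above each array of the earlier ones. The log2 change was 1.30 ± 0.52 at E13.5 against E8.5 (limma adjusted p = 0.123) and 1.38 ± 0.52 at P90 against E13.5 (adjusted p = 0.146), neither called, and 2.68 ± 0.52 at P90 against E8.5 (adjusted p = 0.00347). The last was the only member change called under all 23 alternative settings. P90 replicate 1, the array with low chromaffin markers, was the highest at P90; without it the change was 2.11 (adjusted p = 0.00514). The second probe set of the gene past the filter gave 2.58 ± 0.78 (adjusted p = 0.0385).

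Ccng1 encodes cyclin G1, a direct p53 target that feeds back on Mdm2. The signals were 267, 335 and 396 on the E8.5 arrays, 1523, 550.4 and 1317 on the E13.5 arrays and 2504, 1163 and 685 on the P90 arrays. Every E13.5 and P90 array lay above every E8.5 array. The change at P90 against E8.5 was 1.89 ± 0.53 (limma adjusted p = 0.0227), and that at E13.5 against E8.5, 1.61 ± 0.53, was not called (adjusted p = 0.0595). The first lost its call without P90 replicate 1, at 1.40 (adjusted p = 0.058), and also without P90 replicate 2 (adjusted p = 0.0598) or any 1 E8.5 array (adjusted p from 0.0513 to 0.0843). The second was called without E13.5 replicate 2, at 2.06 (adjusted p = 0.0162), and also without P90 replicate 1 or 3 (adjusted p = 0.0236 and 0.0458). The gene's dimmer probe set, 1450016_at, did not follow: its signals were 169, 249 and 536 on the E8.5 arrays, 155, 496 and 361 on those of E13.5 and 269, 456 and 349 on those of P90, with a change of 0.29 ± 0.52 at P90 against E8.5 (adjusted p = 0.744).

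Plk2 encodes a polo-like kinase that p53 raises in stressed cells and that neurons also make when active. The signals were 52.5, 132 and 114 on the E8.5 arrays, 1793, 139 and 862 on the E13.5 arrays and 208, 359.9 and 364 on the P90 arrays. E13.5 replicates 1 and 3 were far above E8.5, and replicate 2, the array with the Actb difference of 7.0, was just above the highest E8.5 array. The change at E13.5 against E8.5 was 2.51 ± 0.73 (limma adjusted p = 0.0366). A dimmer probe set past the filter, 1443780_at, was not called for the same stages, at 0.32 ± 0.35 (limma adjusted p = 0.621). Without E13.5 replicate 2 the change of the brightest probe set was 3.52 (adjusted p = 0.000699), and the fall at P90 against E13.5 was then called too, at -1.99 (adjusted p = 0.0195). Leaving out E13.5 replicate 1 ended the call, at 1.75 (adjusted p = 0.101), as did leaving out E13.5 replicate 3 (adjusted p = 0.13), any 1 E8.5 array (adjusted p from 0.0757 to 0.14) and, narrowly, P90 replicate 2 or 3, which enter only through the shared spread (adjusted p = 0.05 and 0.0522).

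Cdkn1a, which encodes the cell cycle inhibitor p21 and is the classic arrest target of p53, is not on the list but was examined beside Plk2. Its signals were 70.8, 142 and 116 on the E8.5 arrays, 1501, 175 and 669.9 on those of E13.5 and 445, 106 and 95.6 on those of P90. E13.5 lay above E8.5 on every array, with replicate 2 again the lowest of its stage, and the change of 2.26 ± 0.72 was not called (limma adjusted p = 0.0546).

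Aen, whose product is a nuclease that degrades DNA in dying cells, was the listed p53 target called lower by its brightest probe set. The signals were 653, 507 and 468 on the E8.5 arrays, 436, 112 and 206 on the E13.5 arrays and 318, 114 and 101 on the P90 arrays. Every E8.5 array lay above every later array, and the later stages overlapped. The change at P90 against E8.5 was -1.68 ± 0.52 (limma adjusted p = 0.0366), and that at E13.5 against E8.5 was -1.24 ± 0.52 (adjusted p = 0.14). Of its 3 other probe sets past the filter, 1437373_at gave -1.83 ± 0.33 (adjusted p = 0.00357) and 1450506_a_at -0.98 ± 0.28 (adjusted p = 0.0277) at P90 against E8.5. The remaining one, 1451186_at, gave 0.20 ± 0.25 (adjusted p = 0.619). Without P90 replicate 1 the change was -2.16 (adjusted p = 0.00749). It was not called without P90 replicate 2 or 3 (adjusted p = 0.131 and 0.133), without any 1 E8.5 array (adjusted p from 0.0748 to 0.113) or without E13.5 replicate 3 (adjusted p = 0.0569).

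**Figure D2:**
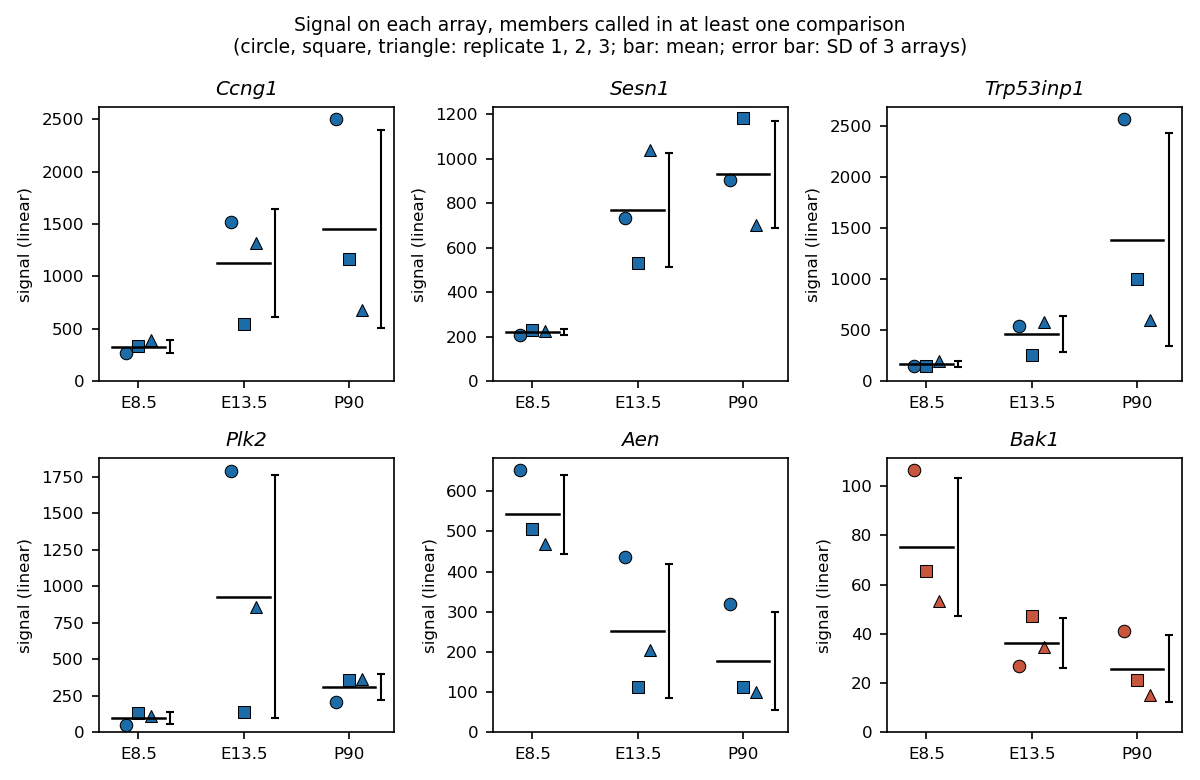
Signal (linear units, vertical axis, from 0) on each of the 9 arrays for the 6 members called in at least 1 comparison, by stage; circles, squares and triangles are replicates 1, 2 and 3, and bars show the mean with the SD of 3 arrays. Sesn1 lies between 207 and 233 on the E8.5 arrays and at 534 or above on all later ones, and P90 replicate 1 is the highest P90 array for Ccng1, Trp53inp1, Aen and Bak1.

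Gadd45a, a growth arrest gene that binds the replication clamp PCNA, had the largest log2 difference among the members that were not called. The signals were 56.2, 221 and 181 on the E8.5 arrays, 53.2, 10.6 and 51 on the E13.5 arrays and 623, 94.6 and 98.5 on the P90 arrays. E13.5 lay below both other stages on every array, and P90 replicate 1 lay far above the other P90 arrays. The changes were -1.59 ± 0.69 at E13.5 against E8.5 (limma adjusted p = 0.151) and 2.01 ± 0.69 at P90 against E13.5 (adjusted p = 0.101). Without P90 replicate 1 the first was called, at -1.59 (adjusted p = 0.0346).

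The remaining stress and arrest targets were not called in any comparison. Zmat3, an RNA-binding zinc finger protein, averaged 1192 ± 81.1 (E8.5), 1231 ± 497 (E13.5) and 726 ± 284 (P90); its P90 arrays lay below all E8.5 arrays (log2 change -0.78 ± 0.44, limma adjusted p = 0.226). Phlda3, which blocks the survival kinase Akt at the membrane, averaged 150.3 ± 41.4 (E8.5), 175 ± 35.2 (E13.5) and 105 ± 15 (P90), with the P90 arrays below those of both other stages (adjusted p = 0.258 against E13.5 and 0.344 against E8.5). Ei24, a membrane protein of the endoplasmic reticulum, averaged 1595 ± 316 (E8.5), 1474 ± 942 (E13.5) and 1697 ± 1047 (P90), with overlap throughout. Perp, a membrane protein of desmosomes, had signals of 60.7, 133 and 113 on the E8.5 arrays, empty, 35.3 and 44.1 on those of E13.5 and 11, empty and 144 on those of P90. With 2 of its 9 values empty, its changes rest on 2 arrays each at E13.5 and P90, and that at P90 against E8.5 was -0.79 ± 0.64 (adjusted p = 0.419).

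Neither Bbc3 nor Tnfrsf10b, the tested p53 targets among the BH3-only and death receptor genes, was called. Bbc3, the BH3-only protein Puma, is the main killer downstream of p53 in many tissues. It averaged 98.5 ± 13 (E8.5), 141 ± 31.4 (E13.5) and 86.2 ± 30.5 (P90), and its log2 changes of 0.44 ± 0.30 for E13.5 against E8.5, -0.63 ± 0.30 for P90 against E13.5 and -0.20 ± 0.30 for P90 against E8.5 were not called (limma adjusted p = 0.397, 0.263 and 0.695). Tnfrsf10b, a death receptor for Trail, averaged 34.4 ± 6.23 (E8.5), 21.3 ± 10.1 (E13.5) and 20.9 ± 4.55 (P90), close to the filter's signal of 26.1, and its P90 arrays lay below all E8.5 arrays (adjusted p = 0.227).

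Fas and Pmaip1 were below that signal on every array. Fas signals were 1.89, 4.05 and 1.28 on the E8.5 arrays, 4.38, 6.99 and 5.05 on those of E13.5 and 18.6, 2.69 and 9.62 on those of P90. Those of Pmaip1, which encodes the BH3-only protein Noxa, were 8.76, 15.8 and 11.9 on the E8.5 arrays, 4.5, 1.4 and 1.81 on those of E13.5 and empty, 1 and 1.47 on those of P90. All 3 E8.5 values of Pmaip1 lay above all later ones, but signals this low have no test here.

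Of the 3 survival members of the Bcl2 family, none was called, and their stages largely overlapped. Bcl2 gave signals of empty, 132 and 206 on the E8.5 arrays, 103, 382 and 254 on those of E13.5 and 314, 262 and 229.8 on those of P90. Both E8.5 values lay below all P90 values, and the change at P90 against E8.5 was 0.64 ± 0.51, with a 95% interval of -0.49 to 1.77 (limma adjusted p = 0.408). Bcl2l1, whose main product is Bcl-xL, averaged 665 ± 217 (E8.5), 809 ± 151 (E13.5) and 573 ± 215 (P90), with an interval of -1.11 to 0.65 for the log2 change at P90 against E8.5. Mcl1, a short-lived survival protein, averaged 2075 ± 535 (E8.5), 1768 ± 662 (E13.5) and 2194 ± 1479.7 (P90), with an interval of -1.23 to 1.0. Changes of 1 log2 unit in at least 1 direction are inside all 3 intervals.

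Bcl2 shows how far probe sets of 1 gene can differ. Its brightest, 1443837_x_at, was higher at P90 than at E8.5, and its 4 others past the filter had log2 changes from -0.49 to -0.14. One of them, 1437122_at, gave 124, 82.1 and 67.2 on the E8.5 arrays, 125, 154 and 169 on those of E13.5 and 45.2, 75.1 and 61.6 on those of P90. All its P90 arrays lay below all its E13.5 arrays, with a change of -1.12 ± 0.30 (limma adjusted p = 0.0457), while the brightest gave 0.27 ± 0.46 for the same stages.

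Bak1 was the member of the Bcl2 family that was called by its brightest probe set. Its product forms the pores through which cytochrome c leaves the mitochondrion. The signals were 107, 65.7 and 53.3 on the E8.5 arrays, 27, 47.3 and 34.8 on the E13.5 arrays and 41.2, 21.2 and 15.2 on the P90 arrays. Every E8.5 array lay above every later one, and P90 replicates 2 and 3 were below the filter's signal. The change was -1.13 ± 0.31 at P90 against E8.5 (limma adjusted p = 0.0197) and -0.78 ± 0.31 at E13.5 against E8.5 (adjusted p = 0.115). The former was -1.38 (adjusted p = 0.0065) without P90 replicate 1, and it lost the call without P90 replicate 2 or 3 (adjusted p = 0.0732 and 0.0887) or without E8.5 replicate 1 or 2 (adjusted p = 0.0766 and 0.0504).

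The BH3-only members were not called by their brightest probe sets. Bcl2l11, which encodes Bim and is the BH3-only protein that neurons use when deprived of trophic factors, averaged 2081 ± 906 (E8.5), 1122 ± 234 (E13.5) and 1658 ± 947 (P90). Its E13.5 change against E8.5 was -0.78 ± 0.48 (limma adjusted p = 0.325). On its dimmer probe set 1435448_at every E8.5 array (411, 367 and 381) lay above every later array. That probe set gave -1.09 ± 0.36 at P90 against E8.5 (adjusted p = 0.0558) and -0.95 ± 0.36 at E13.5 against E8.5 (adjusted p = 0.111). For the latter stages its other dimmer probe sets past the filter gave 0.03, -0.53 and -0.04. Bad, which growth factor signalling keeps inactive, averaged 507 ± 57.7 (E8.5), 802 ± 345 (E13.5) and 609 ± 231 (P90), with a change of 0.55 ± 0.43 at E13.5 against E8.5 (adjusted p = 0.459). Bid, which caspase 8 cuts to link death receptors to mitochondria, averaged 25.3 ± 4.8 (E8.5), 46 ± 29.3 (E13.5) and 19.7 ± 2.5 (P90); its P90 arrays lay below all E13.5 arrays (-0.70 ± 0.29, adjusted p = 0.192). Its 2 probe sets past the filter differed in direction at E13.5 against E8.5, with 0.49 ± 0.29 for the one with the higher mean log2 value over all arrays and -0.88 ± 0.49 for 1417045_at (limma adjusted p = 0.311 and 0.283). The latter gave 60.8, 65.1 and 48.7 on the E8.5 arrays, 39, 3.2 and 44.9 on those of E13.5 and 41.2, 4.79 and 2.39 on those of P90, and a change of -1.40 ± 0.49 at P90 against E8.5 (adjusted p = 0.0655). For the same stages the log2 change of Bid was -0.21 ± 0.29 by the brightest probe set (limma adjusted p = 0.669), but was called lower in 3 alternatives: -1.42 (adjusted p = 0.0335) with arrays scaled to a common 75th percentile, -0.64 (adjusted p = 0.0453) with a pseudocount of 64, and -0.80 (adjusted p = 0.0368) with the mean of its probe sets.

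No caspase or caspase regulator was called by its brightest probe set. Casp8, the caspase that death receptors switch on, was at 65.2 ± 17.9 (E8.5), 38.4 ± 6.22 (E13.5) and 89.2 ± 34.1 (P90). Its P90 arrays lay above all E13.5 arrays, with a log2 change of 0.91 ± 0.29 (limma adjusted p = 0.0796). Casp9, the caspase activated by Apaf1, averaged 307 ± 78.6 (E8.5), 426 ± 126 (E13.5) and 316 ± 142 (P90), and Casp6, an executioner, averaged 151 ± 23.6 (E8.5), 119 ± 54.3 (E13.5) and 182 ± 147 (P90), both with overlap between all stages.

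Cycs and Apaf1, which together form the platform that activates caspase 9, both had their P90 arrays below all E8.5 arrays. Cycs gave 4810.3, 5074 and 5144 on the E8.5 arrays, 7358, 2040.1 and 5648 on those of E13.5 and 3514, 2107 and 1103 on those of P90. The change at P90 against E8.5 was -1.31 ± 0.51 (limma adjusted p = 0.086). For the same stages its dimmer probe set 1422484_at was called, at -1.46 ± 0.46 (limma adjusted p = 0.044). The other, 1422483_a_at, was not, at -1.51 ± 0.81 (adjusted p = 0.223). On the brightest probe set, E13.5 replicate 2 lay within the range of the P90 arrays. Without that array the changes were -1.67 (adjusted p = 0.0256) at P90 against E13.5 and -1.31 (adjusted p = 0.0247) at P90 against E8.5, both called, and without P90 replicate 1 the latter was -1.70 (adjusted p = 0.0243). Apaf1 gave 150.1, 261 and 233 on the E8.5 arrays, 248, 63.6 and 208 on those of E13.5 and 124, 71.7 and 73.6 on those of P90, with a change of -1.13 ± 0.45 at P90 against E8.5 (adjusted p = 0.0969). Without E13.5 replicate 2 the Apaf1 change was called at P90 against E8.5, at -1.13 (adjusted p = 0.0233), and at P90 against E13.5, at -1.24 (adjusted p = 0.0459). Cycs also serves the respiratory chain in living cells.

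Xiap, which binds and blocks caspases, averaged 815 ± 275 (E8.5), 1032 ± 374 (E13.5) and 989 ± 349 (P90), and Diablo, the mitochondrial protein that relieves this block, averaged 1023 ± 216 (E8.5), 1544 ± 1030.1 (E13.5) and 967 ± 291 (P90). Neither was called by its brightest probe set, and in each a dimmer one was. For Xiap, 1450232_at gave 287, 197 and 168 on the E8.5 arrays, 91.7, 76.2 and 70.7 on those of E13.5 and 95.3, 99.3 and 90.2 on those of P90, a change of -1.04 ± 0.29 at P90 against E8.5 (limma adjusted p = 0.0256), with all E8.5 arrays above all later ones. At E13.5 against E8.5 it fell too (-1.26 ± 0.29, limma adjusted p = 0.0135), where the value of the brightest probe set was 0.32 ± 0.45 (adjusted p = 0.706). For Diablo, 1425768_at gave 53.1, 53.3 and 38.1 on the E8.5 arrays, 82.3, 18.5 and 82.7 on those of E13.5 and 128, 198 and 172 on those of P90, a change of 1.49 ± 0.40 (adjusted p = 0.0219), with all P90 arrays above all others.

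Of the 29 tested members, 18 had several probe sets past the filter. These gave 34 probe sets besides the brightest, of which 9 were called in at least 1 comparison. They belonged to Sesn1, Sesn2, Trp53inp1, Aen (2 of them), Bcl2, Cycs, Xiap and Diablo. For Sesn2, Bcl2, Cycs, Xiap and Diablo the brightest probe set was not called, so the count of called members depends on which probe set stands for a gene. The share called among all 24013 probe sets past the filter is not given here, so the 9 cannot be set against it.

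**Figure D3:**
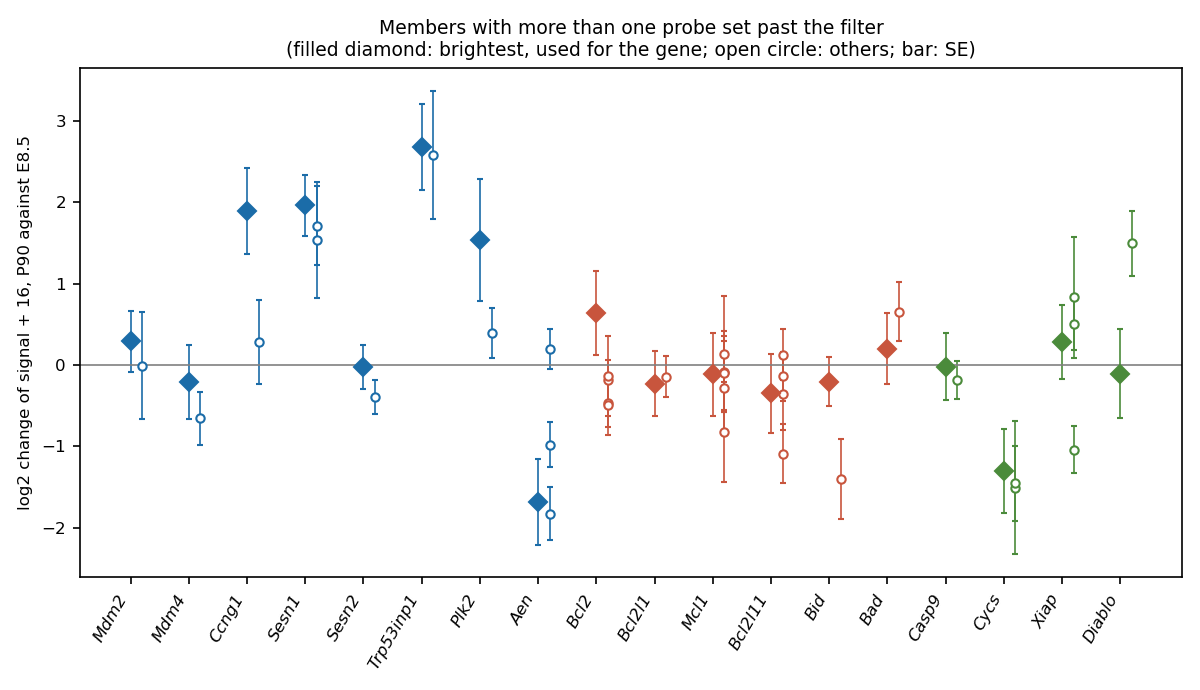
Log2 change (of signal + 16, vertical axis) at P90 against E8.5 for the 18 tested members with more than 1 probe set past the filter; filled diamonds are the brightest probe set, open circles the others, and bars the standard error. The probe sets of Trp53inp1 and Sesn1 lie together above 0, while those of Xiap and Diablo lie on both sides of it.

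Most members deviated in the same direction on the arrays of E13.5 and P90, most strongly by median on E13.5 replicate 2 and P90 replicate 1. The deviations within a stage depend on each other. Among the 28 tested members with no empty value in the stage, E13.5 replicate 2 was the lowest E13.5 array for 19, against 61.5% of all genes, and the median deviation of members from the stage mean was -0.69 log2 units there, beside -0.30 over all genes. P90 replicate 1 was the highest P90 array for 22 of 28 (54.4% of all genes), with a median deviation of 0.50 (0.17 over all genes). P90 replicate 3 was the lowest for 23 of 28 (58% of all genes), with -0.38 (-0.22). Medians on E13.5 replicates 1 and 3 and on P90 replicate 2 were 0.31 (0.13), 0.21 (0.15) and -0.10 (0.03). The part of RNA quality and of captured tissue in the member changes was not tested.

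**Figure D4:**
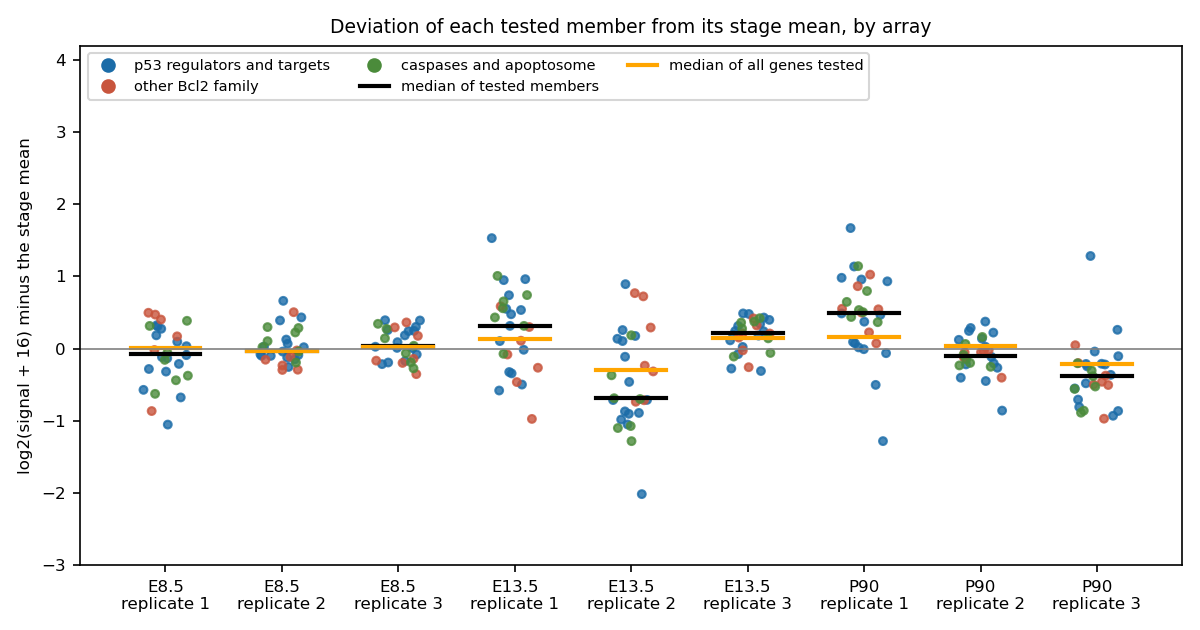
Deviation of each tested member from its stage mean, in log2(signal + 16) (vertical axis), on each of the 9 arrays; points are members. Most members lie below 0 on E13.5 replicate 2 and P90 replicate 3, where their medians are -0.69 and -0.38, and above 0 on P90 replicate 1, where it is 0.50.

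Of the 7 called member changes, 3 kept the call whichever array was left out: both changes of Sesn1 and that of Trp53inp1. Ccng1, Plk2, Aen and Bak1 kept it in 4, 2, 3 and 5 of the 9 fits. Without E13.5 replicate 2, 3 members were called at P90 against E13.5 (Plk2, Apaf1 and Cycs, all lower at P90) in place of 0, and 8 at P90 against E8.5 in place of 5. Without P90 replicate 1, 5 members were called at E13.5 against E8.5 in place of 2 (Ccng1, Sesn1, Trp53inp1, Plk2 and Gadd45a), and at P90 against E8.5 Cycs was called and Ccng1 was not. The share of all genes called in these fits is not given here, so whether the gains are particular to the members cannot be read from them.

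**Figure D5:**
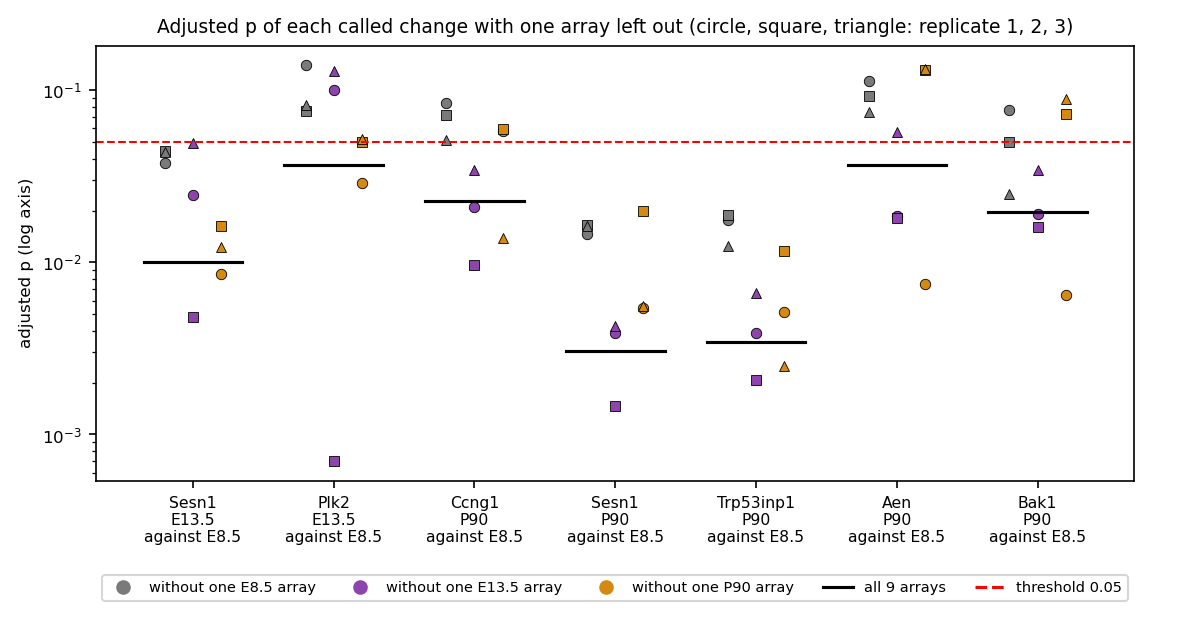
Adjusted p (vertical log axis) of each of the 7 called member changes in the fits that leave out 1 of the 9 arrays; circles, squares and triangles are replicates 1, 2 and 3, black lines the fit of all 9 arrays and the red dashed line the threshold of 0.05. All points of Sesn1 and Trp53inp1 lie under the line, and those of Ccng1, Plk2, Aen and Bak1 lie on both sides.

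The rest of the p53 pathway was read from a separate list of 31 genes, of which 29 were tested. At E13.5 against E8.5, 4 rose and 3 fell (24.1%, beside 16.5% of all genes). At P90 against E13.5, 1 rose and 1 fell (6.9%, beside 9.48%). At P90 against E8.5, 7 rose and 5 fell (41.4%, beside 23.3%), with a median log2 change of 0.19. Besides the genes given below, Gtse1 (lower), Igfbp3 and Shisa5 (higher) were called at E13.5 against E8.5, and Trp63, Rprm, Gtse1, Siva1, Ccnd2 (lower), Pml, Dram1 and Igfbp3 (higher) at P90 against E8.5; they are named to complete counts, after their values were seen. The largest rise was in Cd82, a tetraspanin that restrains cell motility, at 67.1 ± 22.3 (E8.5), 639.5 ± 153 (E13.5) and 959.9 ± 569 (P90) (log2 change 3.44 ± 0.44 at P90 against E8.5, limma adjusted p = 0.000225, and 2.99 ± 0.44 at E13.5 against E8.5, adjusted p = 0.0009). Every E13.5 and P90 array of Cd82 lay above every E8.5 array.

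Btg2, an antiproliferative gene, was at 98.4 ± 11.8 (E8.5), 149 ± 48.1 (E13.5) and 641 ± 48.6 (P90) and rose between E13.5 and P90 (2.03 ± 0.33 at P90 against E13.5, limma adjusted p = 0.00241). Rrm2b, the p53-induced subunit of ribonucleotide reductase that supplies nucleotides to resting cells, rose from 111 ± 30.8 at E8.5 to 621 ± 168 at P90 (2.33 ± 0.47, adjusted p = 0.00401). Shisa5, a p53 target that promotes death from the endoplasmic reticulum, rose from 528 ± 52.3 to 2862 ± 1279 (2.31 ± 0.47, adjusted p = 0.00411).

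Rprm, which arrests cells before mitosis, was highest in the ganglion, at 699 ± 208 (E8.5), 3355 ± 1913 (E13.5) and 132 ± 53.5 (P90). It fell by 4.35 ± 0.52 at P90 against E13.5 (limma adjusted p = 0.00041) after a rise of 2.06 ± 0.52 (adjusted p = 0.019). The rise lost its call in the fits that left out E8.5 replicate 2, E8.5 replicate 3, E13.5 replicate 1 and E13.5 replicate 3, where its adjusted p ran from 0.0622 to 0.089. The p53 relative Trp63, which marks surface epithelium, fell by 1.64 ± 0.31 at E13.5 against E8.5 (adjusted p = 0.00359), and the cyclin Ccnd2 fell by 2.15 ± 0.48 (adjusted p = 0.00928).

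In the other Bcl2 family genes (14 listed, 8 tested), 1 gene was called, at P90 against E8.5 (12.5%, beside 23.3% of all genes). Bmf, a BH3-only gene, fell from 683 ± 109 at E8.5 to 229 ± 104 at P90 (-1.58 ± 0.40, limma adjusted p = 0.0143, 0.0612 without E8.5 replicate 3). In the other death machinery (32 listed, 25 tested) no gene was called at E13.5 against E8.5, where limma's unadjusted p was under 0.05 for 1. At P90 against E13.5, 1 rose and 2 fell (12%, beside 9.48% of all genes), and at P90 against E8.5 3 rose and 3 fell (24%, beside 23.3%).

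Birc5 and Parp1 were among the genes of that list that fell. Birc5, which encodes survivin, a caspase inhibitor family member needed for chromosome segregation, fell from 2448 ± 176 at E8.5 to 98 ± 60.1 at P90, with 1396 ± 726 at E13.5 (-4.56 ± 0.48 at P90 against E8.5, limma adjusted p = 5.41e-05, and -3.62 ± 0.48 at P90 against E13.5, adjusted p = 0.000694). Parp1, a DNA break sensor that caspases cut, fell from 2026 ± 319 at E8.5 to 454 ± 198 at P90 (-2.20 ± 0.41, limma adjusted p = 0.00257). Its fall at P90 against E13.5 (-1.59 ± 0.41, adjusted p = 0.0305) lost its call in each fit that left out replicate 2 or 3 of E8.5 or P90, and in those that left out replicate 1 or 3 of E13.5, where its adjusted p ran from 0.05 to 0.146. Beside these, the proliferation marker Mki67 was at 3639 ± 422 (E8.5), 859.6 ± 289.5 (E13.5) and 51.8 ± 10.6 (P90), and all 9 tested genes of the cycling cell list fell at E13.5 against E8.5 and at P90 against E8.5. Its summed signal was 16852 to 21591 at E8.5, 2292 to 4209 at E13.5 and 433 to 735 at P90; the part of cell division in the member changes was not tested.

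Birc3, Cflar and Tnfrsf1a rose. Birc3, a ubiquitin ligase of the inhibitor of apoptosis family, gave 10.8, 24.8 and 25.8 on the E8.5 arrays, 38.2, 33.2 and 37.7 on those of E13.5 and 297, 221 and empty on those of P90, a change of 2.93 ± 0.30 at P90 against E8.5 (limma adjusted p = 7.28e-05) with 2 values at P90. Cflar, which blocks caspase 8 at death receptors, gave 27.2, 38.4 and 33.1 on the E8.5 arrays, 139, 13.2 and 60.6 on those of E13.5 and 692, 196 and 146 on those of P90, a change of 2.57 ± 0.61 (adjusted p = 0.0106). Every P90 array with a value lay above all arrays of the earlier stages for both genes. P90 replicate 1 was the highest array for both. The summed signal of 5 macrophage genes was also highest there, as were those of 2 adrenal cortex and 6 endothelial genes. That of 4 mesenchymal genes was the highest of the P90 arrays there. The macrophage sum ran from 912 to 1504 over the E8.5 arrays, from 1791 to 2032 over those of E13.5 and from 2332 to 3761 over those of P90. Of the 8 tested genes of the macrophage list, 6 rose at P90 against E8.5 by limma, and none of the 8 overlapped between these stages. The part of macrophages or of these other cell types in the rises of Birc3 and Cflar was not tested. The other called genes of the list, named after their values were seen, were Tnfrsf1a, a receptor for tumour necrosis factor, which rose by 2.09 ± 0.46 (adjusted p = 0.00685), and Htra2, a mitochondrial protease, which fell by 1.25 ± 0.36 (adjusted p = 0.0261).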

How the data were processed

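Signals of 45101 probe sets on 9 arrays (3 stages, 3 arrays each) were used as the authors deposited them, as linear intensities with no value under 1. The submitters' processing notes list the tools GCRMA, RMA, GCOS and MAS5; the tool behind the table and its scaling are not given in the sources used here. RNA was extracted with a PicoPure kit, per the labels' protocols. Probe sets with several symbols (932) or none, controls included (9224), were left out. Of 405909 cells, 8048 were empty, 11 of them in members, and the fit drops an empty cell.

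Intensities were used as log2(signal + 16) with no further scaling. A probe set was kept where its signal was above 26.1, the 40th percentile, on at least 3 of 9 arrays and where each stage had at least 2 values; 24013 passed, and the brightest of each gene was tested. No tested member passed through 1 stage alone: 0 members were above that signal in 1 stage only. Stages were compared with limma 3.58.1 in R 4.3.3 (lmFit, eBayes with a variance trend, 6 residual degrees of freedom, two-sided); p-values were adjusted by Benjamini-Hochberg across the 13748 genes. The precision is limited by 3 arrays per stage.

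On simulated data of the same size, with 200 changed genes, the fit at E13.5 against E8.5 recovered 2% of changes of 1 log2 unit and 53% of changes of 2 log2 units. It recovered 9% and 45% for P90 against E13.5, and 2% and 47% for P90 against E8.5. In the real data 9.48% to 23.3% of the 13748 genes were called per comparison, far more than the 200 planted. The adjustment is stricter where fewer genes change, so recovery in the real data can differ. Alternatives varied the scaling, pseudocount, filter, variance model, choice of probe set, empty cells, replicate block and the arrays used. Named genes were every member, with every-array values for those called and for Mdm2 and Bcl2, and for others where a result turns on them; up to 4 called genes with the largest change per pathway list and comparison; Cdkn1a, Mki67 and Actb as checks; and 3 markers per stage. The members and lists were chosen with earlier results of these data known.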

Additional observations from a re-analysis of the deposited data

How the results depend on the processing

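No member change called in the fit of all 9 arrays reversed under any of 23 alternatives. Of 80 member changes not called, 66 were called in none of them. The member counts (2 at E13.5 against E8.5, 0 at P90 against E13.5, 5 at P90 against E8.5 and 4 by the F-test) moved by over 1.5 times in a few settings, whose cause was not tested. Quantile normalization gave 4, 2 and 7 for the first, second and F-test counts. With no filter on dim probe sets, which raises the genes tested to 17923, they were 1 at E13.5 against E8.5 and 2 by the F-test. Without probe sets ending in _x_at or _s_at, which removes the Sesn1 probe set used, 1 member was called at E13.5 against E8.5. With only the arrays of the 2 stages, 8 were called at P90 against E8.5. Among named changes, the mean of a gene's probe sets ended the calls of Sesn1 at E13.5 against E8.5 (1.19, limma adjusted p = 0.107) and Ccng1 at P90 against E8.5 (1.09, adjusted p = 0.055), and no filter those of Plk2 (adjusted p = 0.0641) and Aen (adjusted p = 0.0556). Leaving out 1 array gave 1 to 5, 0 to 3, 2 to 8 and 2 to 8 members in the order above. Shares of all genes called under these settings are not given here.

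Deviations of same-numbered arrays from their stage means correlated at -0.367 to 0.385, over 0.1 for 3 of 9 pairs. Those of arrays with other numbers correlated at -0.378 to 0.433. The deviations within a stage depend on each other, so this check cannot decide whether equal replicate numbers pair samples. With the replicate block 2, 0, 5 and 5 members were called. The fit with 3 arrays per stage recovers few changes of 1 log2 unit, so members that were not called may differ by that much.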
